A study of Mus musculus with 6 samples.

Results

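The carbonic anhydrases are a family of zinc enzymes, and 10 listed genes of it (Car1, Car2, Car3, Car4, Car5b, Car8, Car9, Car10, Car12 and Car14) were matched by symbol, ignoring case, among the 17742 genes named on the array. They were measured by 12 probes, of which 3 named Car1 and 1 named each of the others. The list was chosen by intensity on these same arrays, with their values known. Car2 was picked out for a higher reading on the SHT array in every labelled pair, so that direction is given as a description.

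These enzymes catalyse the reversible hydration of CO2 to bicarbonate and a proton, and so serve pH control, acid and fluid secretion and gas exchange. Members differ in where they act: Car1, Car2 and Car3 are cytosolic, Car5b is mitochondrial, Car4 is held on the outer cell surface by a lipid anchor, and Car9, Car12 and Car14 span the plasma membrane. Car8 and Car10 are related proteins that lack the enzyme activity. In brain, Car2 is known from oligodendrocytes and choroid plexus, Car8 from Purkinje cells and Car4 from capillaries, while Car3 is abundant in fat and slow skeletal muscle.

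RNA came from female BALB/c mice whose age and number are not in the labels, nor whether animals were pooled or shared between tissues. The labels give brain, ovary and uterus from mice with no treatment (mock) and from mice that received SHT, the herbal decoction Sheng-Hua-Tang, orally for 7 days (200 mg/kg). There was 1 array in each of the 6 groups, read in 1 colour. No difference therefore had a replicate check and no test was made; precision is limited by the number of arrays.

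On several arrays, such as SHT brain and SHT ovary, the marker genes did not follow the tissue labels. Of the 15 possible pairs of arrays, those most alike over all probes (probes are no independent replicates) were mock brain with SHT ovary (Pearson r = 0.996, log2 intensity), SHT brain with mock uterus (0.981) and mock ovary with SHT uterus (0.972). The summed intensity of 5 neuron markers was 107996 on mock brain and 110192 on SHT ovary, and between 566 and 3982 on the other arrays. That of 3 theca and luteal markers was 94366 on SHT brain and 112177 on mock uterus, and at most 894 elsewhere. That of 9 keratinocyte markers was 292127 on mock ovary and 195855 on SHT uterus, and at most 7144 elsewhere. None of the markers listed read at 0 or below on any array. Arrays are therefore named by their labels alone, and no difference is assigned to a tissue or to SHT. In whole tissue, moreover, fewer cells of a type and less RNA per cell cannot be told apart.

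A background bound was set on each array at the 95th percentile of its 529 olfactory receptor genes, a class largely silent outside the nose. It lay between 275 on SHT brain and 541 on mock brain. Of the 10 genes, Car2, Car9 and Car12 read above the bound on every array, Car3, Car4, Car5b, Car10 and Car14 on some, and Car1 and Car8 on none. Levels are deposited intensity, and the level of one gene is not comparable with that of another, since probes differ.

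**Figure D1:**
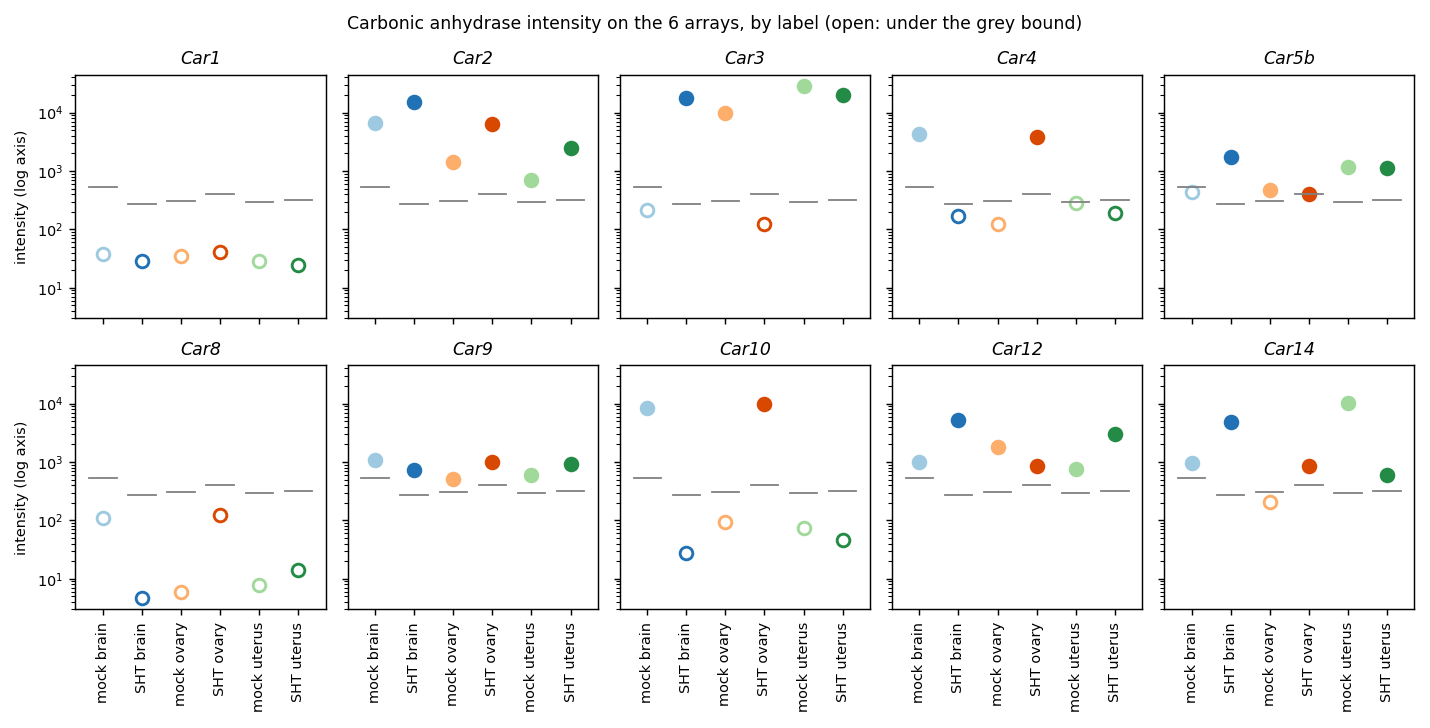
Intensity (vertical log axis) of each carbonic anhydrase on the 6 arrays, named by their labels on the horizontal axis, with 1 point per array and no error bar. The grey lines mark the background bound of each array and open circles lie under it; Car2 spans 706 to 15418, while Car4 and Car10 are above the bound on mock brain and SHT ovary only.

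Car2, the fast cytosolic enzyme, was above the bound on every array. Its intensity was 6689 on mock brain and 15418 on SHT brain, 1450.5 on mock ovary and 6435 on SHT ovary, and 706 on mock uterus and 2465 on SHT uterus. In order, SHT brain was highest, mock brain and SHT ovary followed side by side, and SHT uterus, mock ovary and mock uterus came last. Mock brain and SHT ovary differed by 0.04 on the log2 scale, a size that 85.1% of all genes above the level floor equalled or passed between those arrays. No neighbours in that order, mock brain and SHT ovary included, have a replicate spread to be set against. In deposited intensity, the highest reading was 21.8 times the lowest. The summed intensity of 7 oligodendrocyte genes was 71425 on mock brain and 67798 on SHT ovary, and 8336 to 14005 on the others. Of the 14005 on SHT brain, the probe named Mog gave 6021, more than the 2044 it read on mock brain, and Cnp gave 4761. Of the choroid plexus markers, Ttr and Folr1 differed in which arrays they read high on. Ttr, a thyroid hormone carrier, read 1607 on mock brain and 2515 on SHT ovary but 23.6 on SHT brain, whereas the folate receptor gene Folr1 read 1301 on SHT brain and 1765 on mock uterus but at most 50.2 elsewhere. The part of either cell type in the Car2 readings was not tested.

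Car2 is thus the member that read higher on the SHT array in every labelled pair, as it was chosen to. Against the pair's median gene, it was higher by 1.32 on the log2 scale in the pair labelled brain, 2.02 (4.06-fold) in ovary and 1.82 (3.53-fold) in uterus. How many genes share the pattern that chose Car2 is given as a description, and it is no support for that choice. Of 9643 genes whose mean lay above the level floor in all 3 pairs (the floor being the median pair mean over all probes), 1 was at least 2-fold higher on every SHT array as deposited, and it was Car2. In the opposite direction the count was 0. With no floor the count was 2, Car2 and Ovol2. With each array centred on its median it was also 2, Car2 and Dusp6, and at 3-fold it was 0. Within single pairs, a difference as large as that of Car2 in either direction was common, at 35.3% of genes above the floor in brain, 23.5% in ovary and 9.53% in uterus.

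Car3, a cytosolic enzyme of low activity that is plentiful in fat and muscle, read 215 on mock brain, 17776 on SHT brain, 9778 on mock ovary, 123 on SHT ovary, 29001 on mock uterus and 19920.1 on SHT uterus. It was inside the background on mock brain and SHT ovary and high on the other 4 arrays, which set it against the 2 arrays with the neuron markers. It was at least 35.6-fold higher on SHT brain than on mock brain, at least 26.5-fold lower on SHT ovary than on mock ovary, and 1.44-fold lower on SHT uterus than on mock uterus. Fat markers were low on the same 2 arrays and high on the other 4. The summed intensity of 8 adipocyte genes was 965 on mock brain and 578 on SHT ovary, with 0 of the 8 above the bound on either, and between 31141 and 72228 on the other arrays, with 4 or 5 above it. Adipoq, the fat hormone adiponectin, read 89.0, 8371, 3070.4, 49.2, 18117 and 5735 in the array order used for Car3. In the pair labelled uterus, 3 of 5 adipocyte genes above the floor were called lower (8.49% of all genes), while Car3 was not called. Summed smooth muscle genes split the arrays as fat markers did. They gave 3405 on mock brain, 2592 on SHT ovary and 50802 to 93229 on the others. The summed skeletal muscle markers ran differently, from 623 on mock uterus, where Car3 was highest, to 9452 on SHT uterus. The part of fat or muscle in the Car3 readings was not tested.

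Car1, the cytosolic enzyme best known from red cells and colon, stayed inside the background on all 6 arrays. Its brightest probe read between 24.6 and 40.9, and its other probes at most 4.69. Among the red cell markers, 3 of 8 were measured, and Alas2, the haem synthesis enzyme of red cell precursors, read between 684 and 1489.7. In RefSeq's annotation of mouse (GRCm38.p6), Car13, Car1, Car3 and Car2 follow each other on chromosome 3 with no other protein-coding gene between them. Their readings did not run together: Car13, also cytosolic, lay between 626 and 919.98 on all arrays, Car1 was inside the background, and Car3 was inside it on mock brain and SHT ovary, where Car2 read 6689 and 6435.

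The mitochondrial Car5b, which supplies bicarbonate for biosynthesis, read 433 on mock brain, 1728 on SHT brain, 480.1 on mock ovary, 403 on SHT ovary, 1164 on mock uterus and 1129 on SHT uterus. It was inside the background on mock brain and within 1 intensity unit of the bound (403) on SHT ovary. It was at least 3.46-fold higher on SHT brain than on mock brain, while it was 1.30-fold lower on SHT ovary than on mock ovary. In the pair labelled uterus the difference was -0.03 on the log2 scale.

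Car4, the lipid-anchored surface enzyme, read 4315 on mock brain and 3859 on SHT ovary, and 168 on SHT brain, 122 on mock ovary, 279 on mock uterus and 193 on SHT uterus. The first pair of readings was far above the bound and the other 4 were under it. It was at least 14.5-fold lower on SHT brain than on mock brain and at least 11.3-fold higher on SHT ovary than on mock ovary. The summed endothelial markers did not run that way. Over 8 such genes, the sum was 6976 on mock brain and 7096 on SHT ovary, and between 9800 and 17399 on the other arrays. Against mock ovary, 1 of the 8 was called higher on SHT ovary and 4 lower (25.4% and 21.2% of all genes). The 1 higher was Cldn5, at 3520 against 1331. On SHT brain against mock brain, 3 were called higher and 0 lower (22% and 24%). The part of capillary cells in the Car4 readings was not tested.

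The transmembrane enzymes carry their active site outside the cell. Car9 is a well-known target of hypoxia signalling, and Car12 is found in secretory and absorptive epithelia. The 250 bases before the RefSeq gene start (GRCm38.p6) are shown for these 3, since a hypoxia response core can be looked for in them. They lie at chr4:43506776-43507025 (plus strand), chr9:66713436-66713685 (plus strand) and chr3:95904686-95904935 (minus strand), and are written 5′ to 3′ on the strand of the gene. Capitals mark the hypoxia response core ACGTG and the GC box GGGCGG, on either strand.
Car9: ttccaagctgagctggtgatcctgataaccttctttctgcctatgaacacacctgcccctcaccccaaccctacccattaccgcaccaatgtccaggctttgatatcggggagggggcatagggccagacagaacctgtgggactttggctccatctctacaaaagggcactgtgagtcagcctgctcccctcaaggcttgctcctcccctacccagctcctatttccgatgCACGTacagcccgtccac
Car12: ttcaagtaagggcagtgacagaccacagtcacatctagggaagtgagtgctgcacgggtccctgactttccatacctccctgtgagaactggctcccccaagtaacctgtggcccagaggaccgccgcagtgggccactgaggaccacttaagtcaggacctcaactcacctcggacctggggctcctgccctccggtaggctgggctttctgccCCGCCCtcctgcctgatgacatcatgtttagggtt
Car14: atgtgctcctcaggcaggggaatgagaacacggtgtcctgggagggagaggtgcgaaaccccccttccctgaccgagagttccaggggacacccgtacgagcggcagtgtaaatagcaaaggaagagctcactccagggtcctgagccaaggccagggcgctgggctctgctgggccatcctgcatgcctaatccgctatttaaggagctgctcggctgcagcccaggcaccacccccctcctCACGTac
The core was found once before Car9, with its first letter 18 bases before the start, and once before Car14, at 7 bases. Car12 held no core and 1 GC box, at 35 bases. The 2 motifs do not overlap here. Of 32851 such windows of all genes, 16.6% held the core and 32.7% the GC box, and a match is a description of letters, not of a working site. Of the 10 genes, 6 had a window in the table, and 3 of these 6 held the core in at least 1 window (Car9, Car10 and Car14).

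Of the 3 genes above the bound on every array, Car9 had the narrowest range. Its intensity was 1076 on mock brain, 743 on SHT brain, 503 on mock ovary, 987 on SHT ovary, 589 on mock uterus and 919.55 on SHT uterus. All 6 readings were above the bound and within 2.14-fold of each other. Relative to the median gene, Car9 was 1.33-fold lower on the SHT array in brain, 1.80-fold higher in ovary and 1.58-fold higher in uterus.

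Car12 read 1004 on mock brain, 5135 on SHT brain, 1825 on mock ovary, 850.2 on SHT ovary, 757 on mock uterus and 3023 on SHT uterus. SHT brain and SHT uterus stood highest and mock uterus lowest. It was 5.55-fold higher on SHT brain than on mock brain, 2.34-fold lower on SHT ovary than on mock ovary and 4.04-fold higher on SHT uterus than on mock uterus. The summed intensity of 8 uterine genes was 5522, 55424, 54768, 4899, 29130 and 99695 in the same array order, so that it was also lowest on mock brain and SHT ovary but, unlike Car12, not on mock uterus. The part of uterine cells in the Car12 readings was not tested.

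Car14 read 944 on mock brain, 4864 on SHT brain, 208 on mock ovary, 860.5 on SHT ovary, 10256 on mock uterus and 593 on SHT uterus. It was highest on mock uterus and SHT brain, the arrays with the theca and luteal markers, and inside the background on mock ovary alone. It was 5.59-fold higher on SHT brain than on mock brain, at least 2.52-fold higher on SHT ovary than on mock ovary, and 17.1-fold lower on SHT uterus than on mock uterus. In the uterus pair, a difference at least that large in either direction was held by 1.90% of genes above the floor. The markers of theca and luteal cells, Hsd3b1, Star and Akr1c18, were called lower in that pair as well, 3 of 3 (8.49% of all genes). So were 7 of 7 granulosa and oocyte genes above the floor, and 4 of 5 oviduct and ciliated cell genes. The part of any of these cell types in the Car14 reading was not tested.

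Of the related proteins without enzyme activity, Car10, a secreted partner of synaptic proteins, read 8494 on mock brain and 9734 on SHT ovary. On SHT brain, mock ovary, mock uterus and SHT uterus it read 27.9, 92.3, 75.2 and 46.9, all under the bound. It was at least 28.5-fold lower on SHT brain than on mock brain and at least 28.6-fold higher on SHT ovary than on mock ovary. All 5 neuron markers measured were above the bound on the same pair of arrays, where Snap25, a protein of neurotransmitter release, stood at 58204 and 60038.

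Car8, which binds the inositol trisphosphate receptor in Purkinje cells, read 112 on mock brain and 125 on SHT ovary. It read 4.62 on SHT brain, 6.03 on mock ovary, 7.67 on mock uterus and 14.0 on SHT uterus. All 6 readings were under the bound, so no fold is given, although the first pair stood apart from the other 4. Of the Purkinje markers, Pvalb, a calcium-binding protein that other neurons also use, had the same split, at 1379 on mock brain and 1754 on SHT ovary and at most 22.9 elsewhere. Itpr1, that receptor's gene, read 10825 and 11422 on those arrays and between 1302 and 6327 on the others. Pcp2 was inside the background on both, at 161 and 176, and so was Gad1, at 8.34 and 6.95. Calb1 read 466 on mock brain, inside the background, and 438 on SHT ovary, above it. The part of Purkinje cells in the Car8 readings was not tested.

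**Figure D2:**
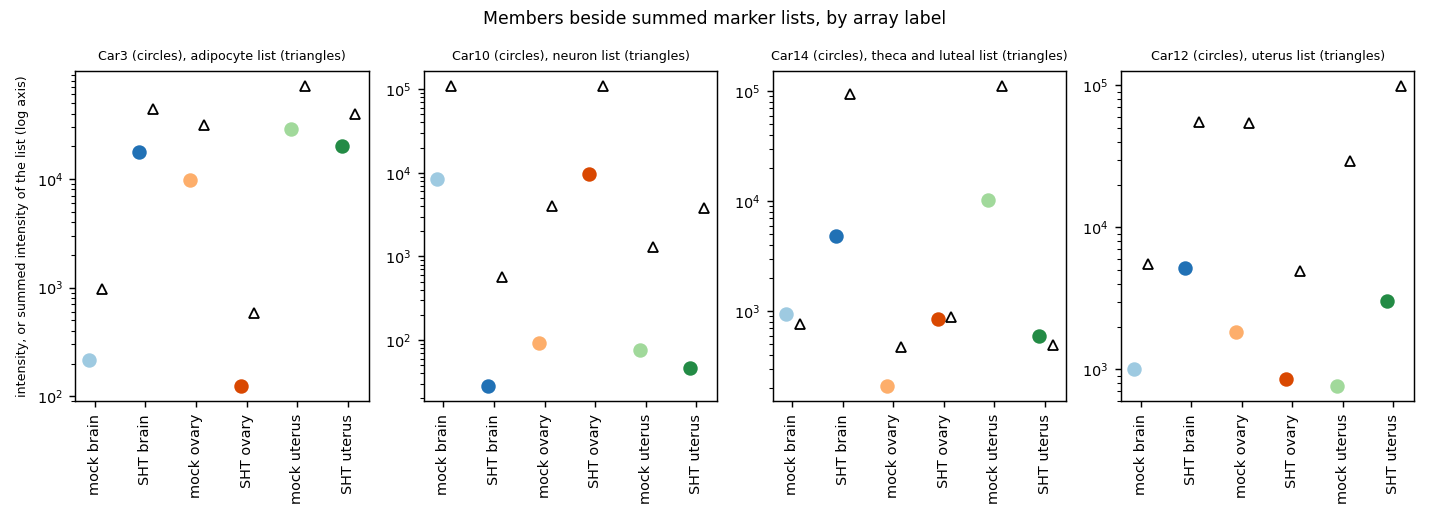
Intensity of Car3, Car10, Car14 and Car12 (circles, coloured by array label) beside the summed intensity of the adipocyte, neuron, theca and luteal, and uterus lists (triangles), on a vertical log axis for the 6 arrays. Car3 is lowest on the arrays with adipocyte sums of 965 and 578, and Car12 is lowest on mock uterus, where the uterus list is not.

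The calls in the labelled pairs are given as counts. On SHT brain against mock brain, 8 of the 10 genes lay above the level floor, 5 of them at least 2-fold higher (Car2, Car3, Car5b, Car12 and Car14; 22% of all genes above the floor were called higher) and 2 lower (Car4 and Car10; 24% of all genes). On SHT ovary against mock ovary, 8 lay above the floor, 4 of them higher (Car2, Car4, Car10 and Car14; 25.4% of all genes) and 2 lower (Car3 and Car12; 21.2%). On SHT uterus against mock uterus, 7 lay above the floor, 2 of them higher (Car2 and Car12; 12.9%) and 1 lower (Car14; 8.49%). The median difference of the members above the floor was 1.72, 1.38 and -0.03 on the log2 scale, beside 0.08, 0.01 and 0.05 for all genes above it. These contrasts entered the choice of genes, so nothing is read from the counts. The percentages for brain depend on the scaling, with 2361 genes higher and 2575 lower as deposited but 2997 and 2046 with each array centred on its median.

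**Figure D3:**
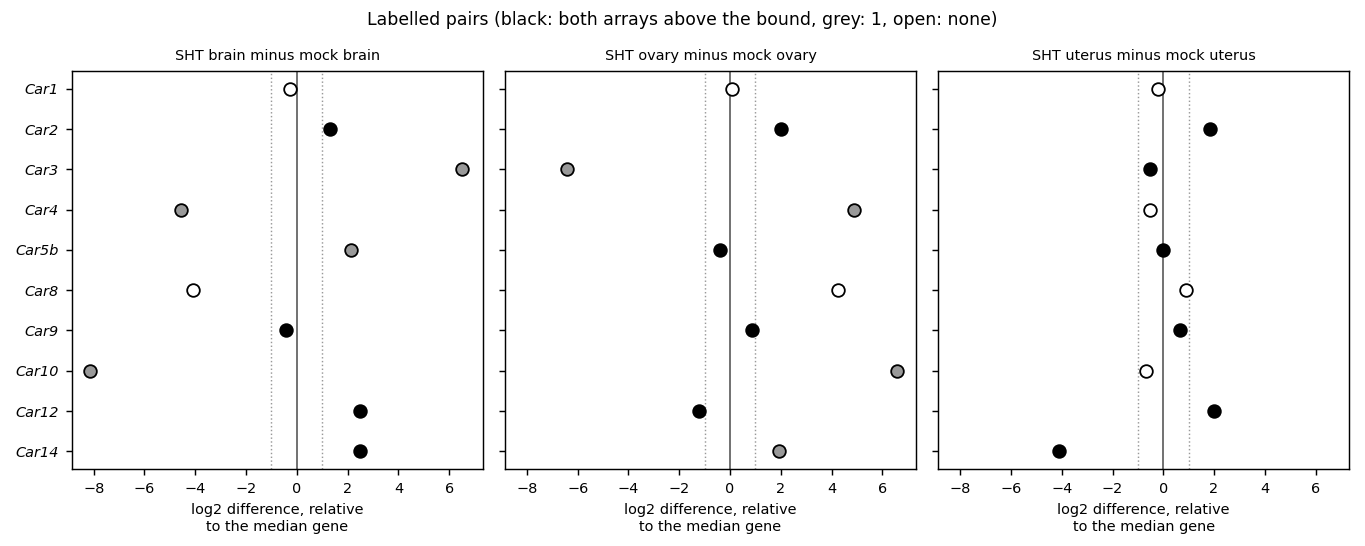
Log2 difference of each carbonic anhydrase between the SHT and the mock array of each labelled pair, relative to the median gene (horizontal axis; dotted lines at 2-fold), with 1 point per gene and no error bar. Black points have both readings above the background bound, grey points 1 and open points none; Car2 lies to the right of 0 in all 3 panels, at 1.32, 2.02 and 1.82.

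The arrays closest to each other over all probes gave another view of the same values, and each shares its arrays with the labelled pairs. This comparison was chosen after the array correlations were seen. Calls here are relative to the median gene. Between mock brain and SHT ovary, none of the 10 genes was called (0.0378% of all genes higher and 0.0756% lower on SHT ovary, with 7 members above the floor). Car2, Car4, Car9, Car10, Car12 and Car14, all above the bound on both, differed there by at most 0.29 on the log2 scale.

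Between SHT brain and mock uterus, which correlated at 0.981, Car2 and Car12 were called higher on SHT brain (5.27% of all genes) and no member lower (1.12%). Car2 was 25.9-fold higher, by 4.70 on the log2 scale, and 20 genes of 10762 above the floor, or 0.186%, differed as much. The rule that chose Car2 favours a high SHT brain reading and a low mock uterus reading. This rank is thus a description and no support for that choice. Car12 was 8.05-fold higher, by 3.01, a size held by 0.799% of genes. Car3 and Car14 differed by -0.46 and -0.83 and Car5b and Car9 by 0.82 and 0.58, under 2-fold. Uterine genes moved with Car2 and Car12: 6 of the 7 above the floor were called higher on SHT brain, and Ltf, the oestrogen-responsive lactoferrin gene, read 42062 against 22691. The theca and luteal genes did not, with 0 of 3 called. The part of uterine cells in the Car2 difference was not tested.

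Between mock ovary and SHT uterus, Car14 was called higher on SHT uterus (6.11% of all genes), by at least 1.51-fold, and no member lower (5.07%). The Car14 reading on mock ovary was inside the background, so a difference of 2-fold is not shown. Car2 and Car12 were 1.35-fold and 1.32-fold higher on SHT uterus.

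**Figure D4:**
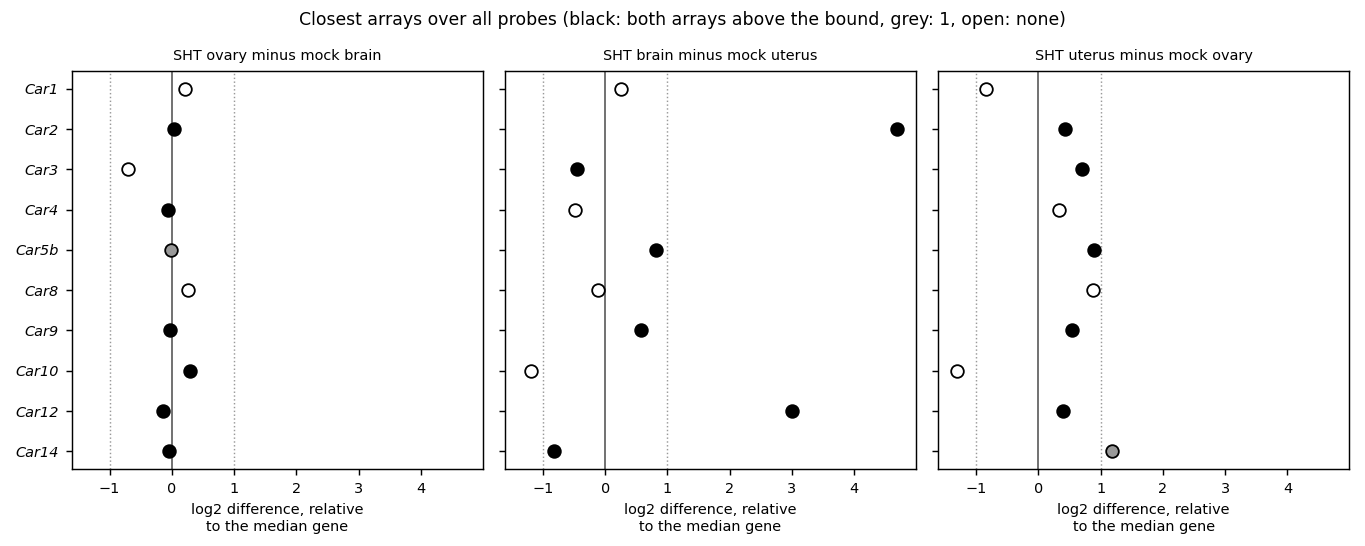
Log2 difference of each carbonic anhydrase between arrays that correlated most closely over all probes, relative to the median gene (horizontal axis; dotted lines at 2-fold), with 1 point per gene and no error bar. Symbols are filled as for the labelled pairs; all points lie within 1 of 0 for SHT ovary against mock brain, while Car2 and Car12 lie at 4.70 and 3.01 for SHT brain against mock uterus.

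The array also named 6 further carbonic anhydrase genes. Car7, a cytosolic enzyme of neurons, read 1101 on mock brain and 1227 on SHT ovary, and at most 204 elsewhere. Car11, another related protein without enzyme activity, read 1730.2 and 2026 on those arrays and between 256 and 326 on the others. Car15, a lipid-anchored enzyme, read 476 and 514 there, above the bound on SHT ovary only, and at most 194 elsewhere. In the pairs labelled brain and ovary, 4 of the 6 lay above the floor. Car7 and Car11 were at least 3.69-fold and 5.80-fold lower on SHT brain than on mock brain (24% of all genes were called lower), and at least 3.60-fold and 5.94-fold higher on SHT ovary than on mock ovary (25.4% called higher). Car15 was at least 1.51-fold higher on SHT ovary than on mock ovary. It was also called lower on SHT brain, but both of its readings in that pair were inside the background, so no fold is given. Car5a, of liver mitochondria, and Car6, which is secreted in saliva, were inside the background on every array, at 68.4 to 194 for Car5a and at most 21.8 for Car6.

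Likeness to a gene was measured as the mean absolute difference over the 6 arrays between log2 values, each centred on the gene's own mean, among 11470 named genes with a brightest reading above the bound. Closest to Car2 was Ovol2, a zinc finger factor of epithelial cells, at 0.23. It read 779.6 on mock brain, 2305 on SHT brain, 295 on mock ovary, 1018 on SHT ovary, 132 on mock uterus and 333 on SHT uterus. Rab37 followed at 0.47, the anion exchanger Slc26a1 at 0.50, 2810459M11Rik at 0.50 and Omp at 0.55. Ovol2 was inside the background on mock ovary and mock uterus. Rab37 was above the bound on SHT brain and SHT ovary only, and Slc26a1 on SHT brain only, at 301. 2810459M11Rik was inside the background on mock ovary, mock uterus and SHT uterus, while Omp was above the bound on every array.

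**Figure D5:**
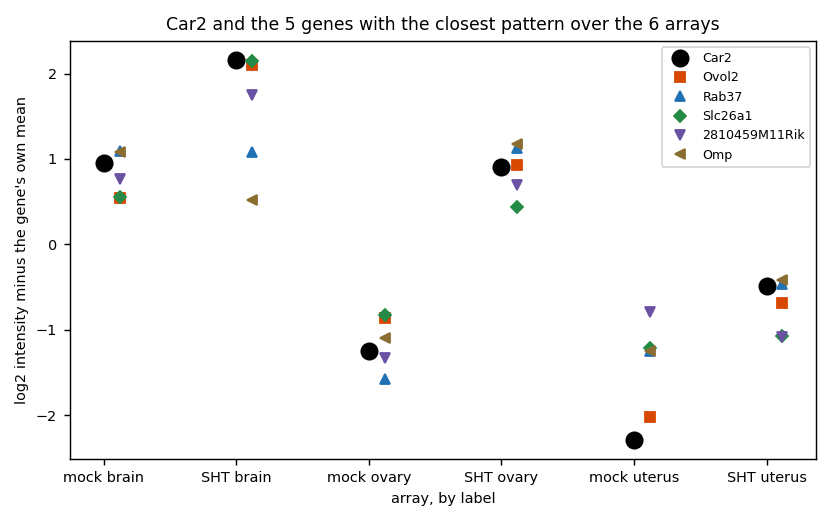
Log2 intensity of Car2 (black circles) and of the 5 genes closest to it in pattern, each minus its own mean, on the 6 arrays named by their labels. Ovol2 lies nearest to Car2, with a mean distance of 0.23; the other 4 lie at 0.47 to 0.55.

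For Car3 the closest genes were Wt1 (0.24), Adipoq (0.29) and Aoc3, an amine oxidase of fat and smooth muscle (0.33). For Car4 they were Necab3 (0.08), Apbb1 (0.11) and the pacemaker channel gene Hcn2 (0.11). Those of Car12 were Fer1l4 (0.12), the organic anion transporter gene Slco4a1 (0.13) and Pik3r5 (0.21). Those of Car8 were Prkca (0.12), Osbp2 (0.14) and Zfp831 (0.14), with Car8 itself inside the background. Several of these distances rest on readings under the bound on some arrays.

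Carbonic anhydrases work beside transporters of bicarbonate, protons and lactate. Of 21 listed anion exchangers and bicarbonate cotransporters, 19 were measured. Of those above the floor, 3 of 7 were called higher and 3 lower in the pair labelled brain, 3 of 7 higher and 1 lower in ovary, and 1 of 8 higher and none lower in uterus. Over all genes the shares called higher and lower were 22% and 24% in brain, 25.4% and 21.2% in ovary, and 12.9% and 8.49% in uterus. The list medians were -0.39, -0.11 and -0.31, of which those for brain and ovary are values of Slc26a6, inside the background on both arrays of each pair. Slc4a10, a sodium-driven bicarbonate exchanger of neurons, read 9428 on mock brain and 8796 on SHT ovary, and at most 146 elsewhere. Cftr, the chloride and bicarbonate channel of secretory epithelia, was above the bound on SHT brain (1355), mock uterus (549) and SHT uterus (385). Slc26a4, the exchanger pendrin, was above it on SHT uterus only, at 3277. Slc26a9 was above it on mock ovary (449) and SHT uterus (592).

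Of 22 proton exchangers, pumps and lactate carriers, 20 were measured. None of 6 above the floor was called higher and 2 lower in brain, none of 8 higher and 3 lower in ovary, and 3 of 7 higher and none lower in uterus, with medians of -0.31, -0.57 and 0.19, beside 22% and 24%, 25.4% and 21.2%, and 12.9% and 8.49% of all genes. The uterus median is the value of Slc9a4, inside the background on both arrays. That for brain rests in part on Atp6v0d2, also inside it on both arrays of the pair. Atp6v0a4 and Atp6v1c2, subunits of the proton pump of acid-secreting cells, read 921 and 953 on mock ovary. On SHT brain they read 419 and 92.5. Atp12a, a potassium and proton pump, was above the bound on mock ovary only (349), and the exchanger Slc9a7 on mock uterus only (346).

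Of 12 listed hypoxia-responsive genes, 10 were measured. Of 9 above the floor in each pair, 2 were called higher and 2 lower in brain, 1 higher and 4 lower in ovary, and 6 higher and none lower in uterus, with medians of -0.15, -0.77 and 1.73. The shares over all genes were again 22% and 24%, 25.4% and 21.2%, and 12.9% and 8.49%. Bnip3, among those lower in brain, was inside the background on both arrays. Their summed intensity was 44924 on mock ovary and 52575 on SHT uterus, and between 15629 and 18834 on the other 4 arrays. Car9 did not follow that split, with its lowest reading on mock ovary. Egln3, an oxygen-sensing hydroxylase, read 884 on mock brain, 5137 on SHT brain, 7295 on mock ovary, 1011 on SHT ovary, 558 on mock uterus and 10845 on SHT uterus. Like Car12, it was higher on SHT brain than on mock uterus, and lowest on mock uterus. Hk2, Slc2a1 and Adm, of glucose use and vessel tone, stood highest on mock ovary or SHT uterus, at 15682 (Hk2, SHT uterus), 15116 (Slc2a1, mock ovary) and 2189.6 (Adm, mock ovary).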

How the data were processed

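The values are linear intensity of 26423 probes on 6 arrays of Cy5-labelled RNA, from the table of processed values deposited by the authors. The submitters' processing notes name limma, with no version or role. For background correction, scaling and probe filters, nothing is stated in the sources used here. Array medians ran from 179 to 224. Values were raised to each array's 5th percentile of positive values and put on the log2 scale, without scaling between arrays (Python 3.11.15, pandas 2.3.3). Symbols came from the platform annotation, updated through RefSeq (GRCm38.p6), and the probe with the highest mean stood for a gene. No probe position is printed, because the sources used here name no build for the probes. A reading was called inside the background where it fell below its array's bound (the 95th percentile over olfactory receptor genes), and a fold with 1 such reading ("at least") was taken against that percentile. Folds and log2 differences between 2 arrays are relative to the median gene of the pair (-0.12, 0.13 and -0.02 for brain, ovary and uterus). The range of a gene over the 6 arrays is a ratio of deposited intensity, without that step. Calls needed a 2-fold difference, as deposited for labelled pairs, and a pair mean above its median over all probes, 203 to 218 for those pairs. Members, lists and the naming rule (every member, up to 4 genes of a list with the widest range, the genes closest in pattern) were chosen with earlier results of these data known; from the lists, some further genes were named after their values were seen. Alternatives were median centring, quantile normalization, a gene's mean probe value, no floor or an upper-quartile one, the olfactory receptor median as the lowest value, and 3-fold.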

Additional observations from a re-analysis of the deposited data

Results flagged for a closer look

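In 5 of the genes, labelled pairs were called in opposite directions. The share of all genes that did so was not counted, so nothing about the family is read from this number. Between mock brain and SHT ovary, 0.0378% of all genes were called higher and 0.0756% lower. Any gene that sets both apart from SHT brain and mock ovary is thus called in opposite directions in brain and ovary. Each group held 1 array, and the difference between pairs was not tested. Subtracting the log2 difference of one pair from that of the other, brain minus ovary gave 12.92 for Car3, -9.43 for Car4, -14.73 for Car10 and 3.70 for Car12. Ovary minus uterus gave -3.24 for Car12 and 6.02 for Car14, and brain minus uterus gave 6.58 for Car14. The values of Car3, Car4, Car10 and that of Car14 between ovary and uterus include readings inside the background. With those readings raised to the bound, as for the folds, the values were at least 9.88 for Car3, -7.36 for Car4, -9.67 for Car10 and 5.43 for Car14 in size, in the same direction, and the larger ones are not measured sizes.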

How the results depend on the processing

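Car2 has 1 probe, with every reading above the bound. The probe rule and the raised lowest value could therefore move only the median gene subtracted. Car2 was chosen for its direction and kept it in all 3 labelled pairs under every scaling and probe rule tried. Its log2 difference was 1.47 with median centring and 1.53 with values raised to the olfactory receptor median in brain, 1.87 with quantile normalization and 1.90 with that raised floor in ovary, and 1.69 with centring and 1.68 with quantile normalization in uterus. The members called higher in ovary fell from 4 to 2, and those lower in brain from 2 to 0, with a level floor at the upper quartile. Both follow from fewer genes entering. Those lower in ovary fell from 2 to 1 at 3-fold, since Car12 was 2.34-fold lower. Genes at least 2-fold higher on every SHT array numbered 2 with centring, 2 with no floor and 0 at 3-fold. Over all genes, the upper-quartile floor gave 1137, 1429 and 576 higher and 1248, 1076 and 327 lower for brain, ovary and uterus. The 3-fold threshold gave 1456, 1804 and 809 higher and 1635, 1505 and 472 lower. Without a floor, 4091 were higher in ovary, 4000 lower in brain and 1658 lower in uterus. In ovary the majority turned from higher (2720 against 2269) to lower with centring (2444 against 2526) and quantile normalization (2375 against 2547). For the arrays closest to each other, the alternatives were chosen after seeing the data; there Car2 lay between 4.62 and 4.70 and Car12 between 2.93 and 3.01 on SHT brain against mock uterus. No paired analysis was possible because each group held 1 array with no replicate number. Signal over background limits Car1 and Car8, which have no measured level.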

Other observations

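Further marker lists gave these summed intensities. Granulosa and oocyte genes summed to 45309 (SHT brain, by label) and 76410 (mock uterus), and to between 1565 and 4780 on the others. Oviduct and ciliated cell genes summed to 35174 and 45414 on those arrays, and to between 4443 and 7471 on the others. Smooth muscle genes summed to 3405 on mock brain and 2592 on SHT ovary, and to between 50802 and 93229 on the others. Ovgp1, the oviduct glycoprotein gene, read 25536 on SHT brain and 31822 on mock uterus, and at most 146 elsewhere. Des, the desmin gene of muscle, read 13588 on mock ovary and 7001 on SHT uterus.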
